A study of Mus musculus with 10 samples.

Results

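Long-chain acyl-CoA is the activated form of a fatty acid, and 10 genes that make it, carry it or break it down were followed in islets of mice lacking FIT2 in β cells. They are 5 long-chain acyl-CoA synthetases (Acsl1, Acsl3, Acsl4, Acsl5 and Acsl6), 3 acyl-CoA binding proteins (Dbi, Acbd3 and Acbd5) and 2 CoA diphosphatases (Nudt7 and Nudt19), picked by name from the 47340 genes of the deposited table, and all 10 were abundant enough to be tested. Islets came from 12-wk-old, chow-fed male mice, 5 floxed controls (FL) and 5 βFIT2KO (KO), with 1 mouse per library, and were kept overnight in CMRL medium before RNA was taken. Both groups carry the floxed Fitm2 gene, and in KO mice the rat insulin II promoter also drives Cre recombinase. The labels name the controls Flox in their titles but wild type as genotype, and mice carrying Cre alone were not analysed here, so that effects of Cre and of Fitm2 loss cannot be told apart. Values are FPKM, in which fragments are scaled by exon length and by sequencing depth, so that levels of different genes can be set side by side.

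A fatty acid enters metabolism only after a synthetase has joined it to coenzyme A (CoA) at the cost of ATP. ACSL proteins differ in the membranes they sit on and in the fatty acids they prefer, and ACSL4 prefers arachidonate. Acyl-CoA binding proteins hold the product in the cytosol or at an organelle, and Nudix hydrolases of the peroxisome (Nudt7 and Nudt19) split CoA and its acyl esters at the diphosphate bond, a reaction that FIT2 also carries out on acyl-CoA at the ER. In β cells, long-chain acyl-CoA feeds oxidation, lipid droplets, membrane lipids and ceramide, and is a signal linked to insulin secretion.

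FPKM of a library summed to 646233 to 675470 in FL and to 627084 to 653292 in KO. The number of reads was not given, but the steps between very low values put the depth of the other libraries at 1.39 to 2.38 times that of the shallowest, FL mouse 1. Fitm2 itself was at 15.5 to 37.1 FPKM for FL against 4.30 to 9.13 FPKM for KO, without overlap (log2 fold change −1.58, SE 0.28, limma adjusted p = 0.00228). Genes were compared with limma on log2(FPKM + 1), and fold changes are on that scale. At an adjusted p of at most 0.05, 25.5% of the 13065 tested genes differed, 1183 higher and 2150 lower in KO, and after median-ratio rescaling of the libraries 1621 were higher and 1531 lower. Islet identity was checked with marker genes. Of 12 β cell markers 9 were tested and 7 were lower in KO, with a summed level of 2616 to 3198 FPKM for FL against 1781 to 2427 FPKM for KO, while Ins1, Ins2, Iapp and Gcg are listed at 0 in every library although islets express them strongly. Summed α cell markers were also lower in KO without overlap (512 to 740 FPKM in FL, 364 to 502 in KO), with 1 of 7 tested called (Ttr). Ttr made up most of that sum, with a mean of 490.6 of 623.5 FPKM in FL and 334.7 of 453.9 in KO. Summed δ cell markers were at 4960 to 5852 and 3993 to 5339 FPKM, with 1 of 4 called lower (Sst). Sst likewise made up a mean of 4976 of 5348 FPKM in FL and 4091 of 4415 in KO. These 2 sums thus mainly reflect 1 gene each and not the whole list. Of 8 tested endothelial markers 5 were higher (163 to 189 FPKM summed in FL, 197 to 259 in KO), of 8 tested macrophage and leukocyte markers 4 were higher (219 to 264 and 281 to 338), and all 5 tested stellate and fibroblast markers were higher (12.6 to 21.3 and 25.1 to 35.2). In bulk islets, fewer cells of a type and less RNA per cell cannot be told apart, and the part of these shifts in the results that follow was not tested. Of the remaining lists, 1 of 6 duct markers was lower (Krt7) and 1 higher (Cftr, which passed the filter through the KO group alone), the only adipocyte marker tested (Fabp4) was higher with Adipoq and Cfd at 0, and no PP or Schwann cell marker was called. Summed acinar markers, of which none of the 11 tested was called, spread from 3125 to 23210 FPKM over the 10 libraries.

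Of the 10 members, 3 were higher in KO (Acsl4, Acsl5 and Dbi) and 1 was lower (Acsl1) at an adjusted p of at most 0.05, a share to be read against 25.5% of all tested genes in either direction, 9.05% for higher and 16.5% for lower. The median log2 fold change was 0.06 over the members and −0.06 over all tested genes. FL and KO libraries did not overlap for 2 of the 10 (Acsl5 and Dbi, both higher), against 19.1% of all tested genes in either direction and 6.67% for genes higher in KO. No member changed by 1.5-fold or more together with an adjusted p of at most 0.05, as 4.89% of all tested genes did.

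**Figure D1:**
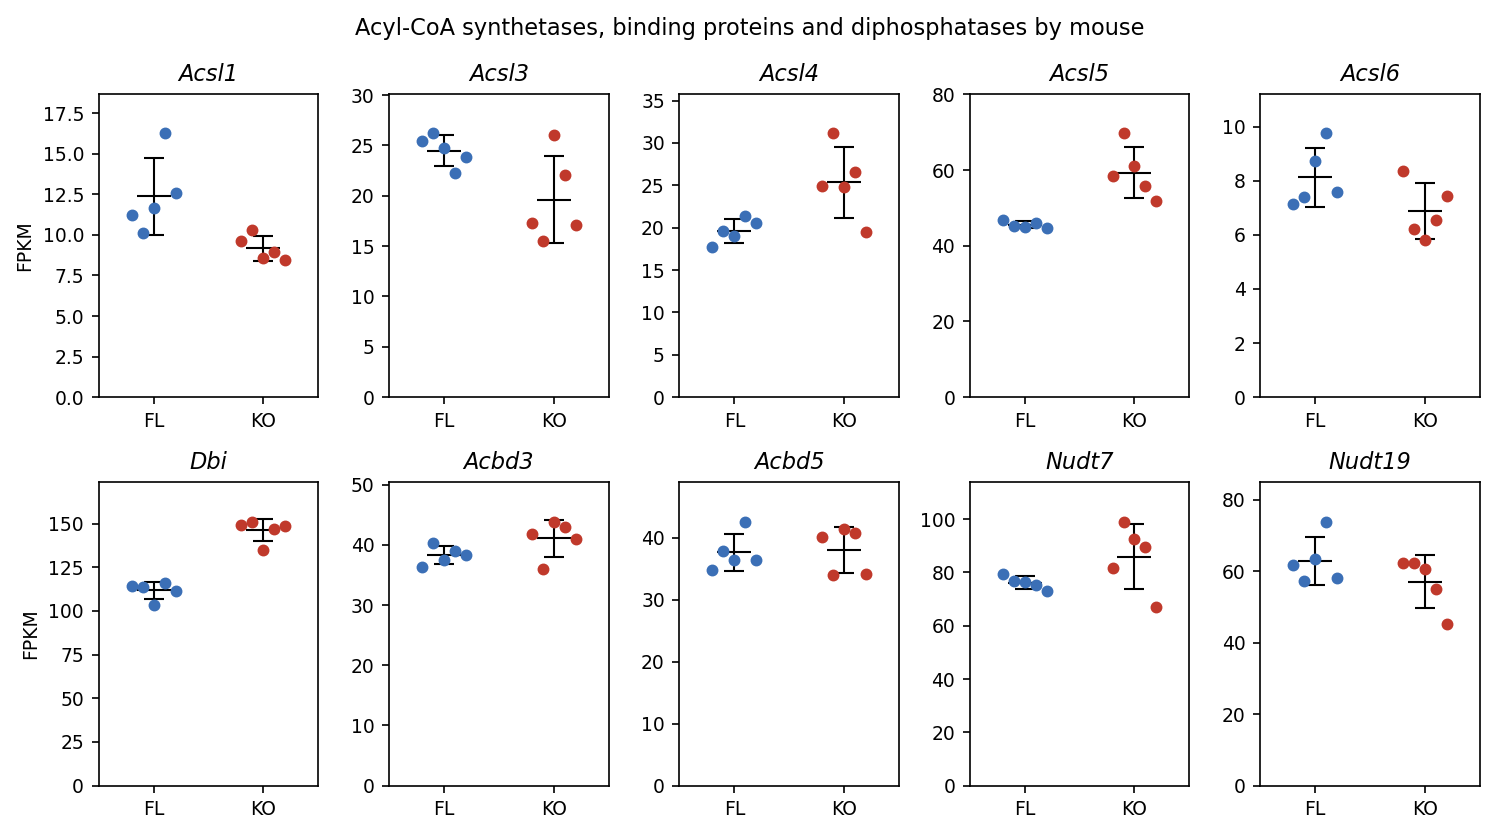
FPKM (y axis, from 0, a scale of its own for each gene) of the 10 genes in FL (blue) and KO (red) islets, 1 point per mouse in the order of the replicate numbers, with the mean and SD of 5 mice in black. Only Acsl5 and Dbi show KO points that all lie above the FL points, and the KO points of Acsl3 and Nudt7 are spread more widely than their FL points.

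Acsl5, whose product sits on the ER and on mitochondria, was the most abundant synthetase in both groups. It was at 46.9, 45.2, 44.9, 46.1 and 44.6 FPKM in FL mice 1 to 5 and at 58.4, 69.8, 61.0, 55.9 and 51.8 FPKM in KO mice 1 to 5. Every KO mouse was above every FL mouse, and the FL mice lay closer together than the KO mice. The mean was 45.5 ± 0.961 FPKM for FL against 59.4 ± 6.74 FPKM for KO (SD over 5 mice), giving a log2 fold change of 0.37 (SE 0.07, 95% interval 0.21 to 0.52, limma adjusted p = 0.00333). The exact two-sided permutation test over the 10 libraries gave p = 0.00794, the smallest that 5 mice against 5 allow. The gene lies on chromosome 19 from 55251938 to 55297720 (plus strand) in GENCODE release M21 of GRCm38 and shares exon sequence with Zdhhc6 on the opposite strand, which was at 17.2 ± 1.17 FPKM for FL against 20.4 ± 1.02 FPKM for KO (SD, n = 5; log2 fold change 0.23, limma adjusted p = 0.0118). The libraries were stranded, and whether reads were counted by strand is not given in the sources used here.

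Acsl4, the synthetase that prefers arachidonate and other polyunsaturated fatty acids, was at 17.7, 19.7, 19.0, 21.4 and 20.6 FPKM in FL mice 1 to 5 and at 24.9, 31.2, 24.9, 26.6 and 19.5 FPKM in KO mice 1 to 5. The KO mice 1 to 4 were above all FL mice and KO mouse 5 lay among them. The log2 fold change was 0.34 (SE 0.10, 95% interval 0.11 to 0.57, limma adjusted p = 0.0329; exact permutation p = 0.0317, two-sided). The call was close to the threshold: leaving out any one of FL mice 1, 2, 3 or 5 or of KO mice 1 to 4 gave an adjusted p of 0.0520 to 0.0746 with log2 fold changes of 0.27 to 0.36, whereas without KO mouse 5 the log2 fold change was 0.43 (limma adjusted p = 0.00415). Acsl4 lies on the X chromosome (142317993 to 142390535, minus strand), and no other annotated gene overlaps it.

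Acsl1, the main synthetase of liver, fat and heart and a known target of the fatty acid receptor PPARα, was the only member called lower. It was at 11.2, 10.1, 11.6, 16.3 and 12.6 FPKM in FL mice 1 to 5 and at 9.63, 10.3, 8.57, 8.92 and 8.48 FPKM in KO mice 1 to 5. The groups overlapped through KO mouse 2, which was above FL mouse 2, and FL mouse 4 was the highest of all. Its mean was 12.4 ± 2.35 FPKM for FL against 9.18 ± 0.768 FPKM for KO (SD over 5 mice), giving a log2 fold change of −0.38 (SE 0.11, 95% interval −0.61 to −0.15, limma adjusted p = 0.0240; exact permutation p = 0.0159, two-sided). Without FL mouse 4 the log2 fold change was −0.28 (limma adjusted p = 0.0229). The call was lost without FL mouse 5 (adjusted p = 0.0527), KO mouse 4 (0.0533) or KO mouse 5 (0.0543; limma). Acsl1 spans chromosome 8 from 46471037 to 46536051 (plus strand).

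Acsl3, which sits on the ER and on nascent lipid droplets and serves their formation, was at 25.4, 26.2, 24.7, 22.2 and 23.9 FPKM in FL mice 1 to 5 and at 17.3, 15.5, 26.1, 22.1 and 17.1 FPKM in KO mice 1 to 5. KO mouse 3 was at the level of the highest FL mice and the other 4 KO mice were below all FL mice, KO mouse 4 by a narrow margin. The log2 fold change of −0.33 (SE 0.12, 95% interval −0.60 to −0.06) missed the threshold (limma adjusted p = 0.0729; exact permutation p = 0.0635, two-sided). Without KO mouse 3 it was −0.43 (limma adjusted p = 0.00826), but leaving out any other single mouse gave an adjusted p of 0.0678 to 0.150 (limma). Acsl3 lies on chromosome 1 (78657825 to 78707743, plus strand) and shares exon sequence with Utp14b on the same strand, which had a log2 fold change of −0.32 (limma adjusted p = 0.0156) at 2.02 ± 0.189 FPKM for FL against 1.42 ± 0.190 FPKM for KO (SD, n = 5).

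Acsl6, best known from brain, was the lowest member. It ranged from 7.15 to 9.76 FPKM in FL (median 7.599) and from 5.82 to 8.38 FPKM in KO islets (median 6.54), and 3 of the 5 KO mice were below all FL mice. Its log2 fold change of −0.22 (SE 0.10, 95% interval −0.44 to 0.01) was short of the threshold (limma adjusted p = 0.151). Values as low as −0.44 are within that interval. Acsl6 lies on chromosome 11 (54303798 to 54364756, plus strand), and its antisense neighbour Gm12224 is listed at 0.

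**Figure D2:**
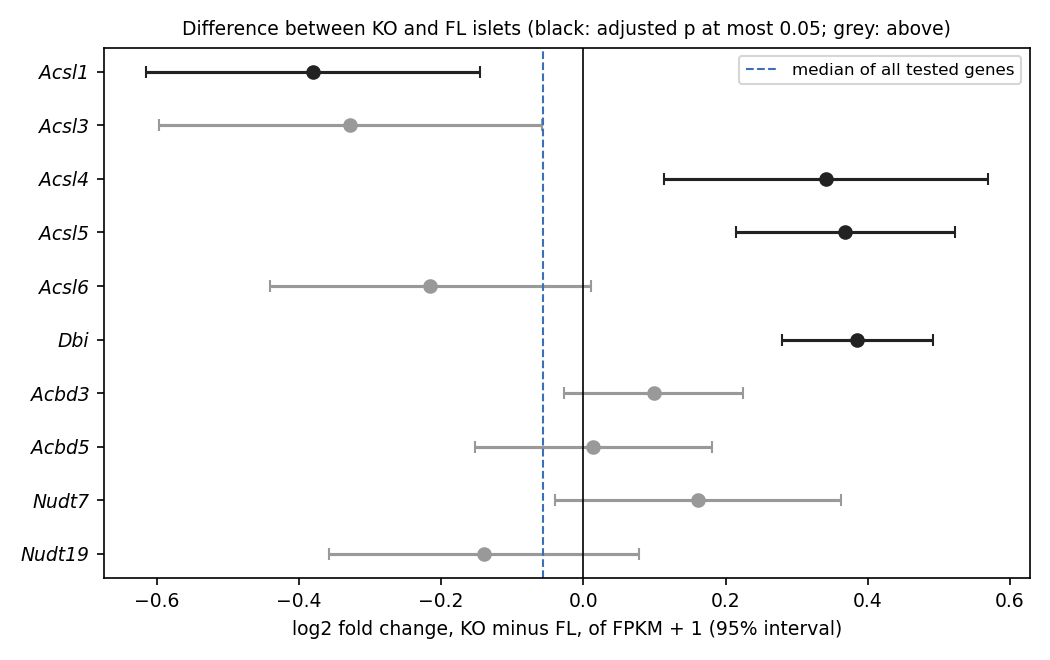
Log2 fold change of FPKM + 1, KO minus FL (x axis), of each of the 10 genes with its 95% interval from limma, black for an adjusted p of at most 0.05 and grey for a larger one; the dashed line marks the median of all tested genes, −0.06. Dbi and Acsl5 have the intervals farthest above 0, Acsl1 is the black point below 0, and the interval of Acbd5 is centred near 0.

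The 5 synthetases together were at 110 ± 3.13 FPKM for FL against 120 ± 10.7 FPKM for KO (SD, n = 5). By mouse the sum was 108.4, 108.7, 108.9, 115.8 and 109.2 FPKM for FL against 118.6, 133.0, 126.3, 120.0 and 104.3 FPKM for KO. KO mice 1 to 4 were above, and KO mouse 5 below, all FL mice. As a share of this sum, Acsl5 made up 41.4 ± 1.26% in FL (39.9 to 43.3%) and 49.25 ± 2.17% in KO (46.6 to 52.5%), and Acsl1 made up 11.2 ± 1.79% in FL (9.32 to 14.1%) and 7.64 ± 0.559% in KO (6.79 to 8.13%; SD, n = 5). For these 2 genes the shares of the groups did not overlap. The shares of Acsl3 (19.2 to 24.1% in FL, 11.7 to 20.6% in KO), of Acsl4 (16.3 to 18.8% and 18.7 to 23.4%) and of Acsl6 (6.599 to 8.436% and 4.61 to 7.12%) overlapped. Shares do not depend on the scaling of a library, and they do not move independently because they add up to the whole. They are given without a test.

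**Figure D3:**
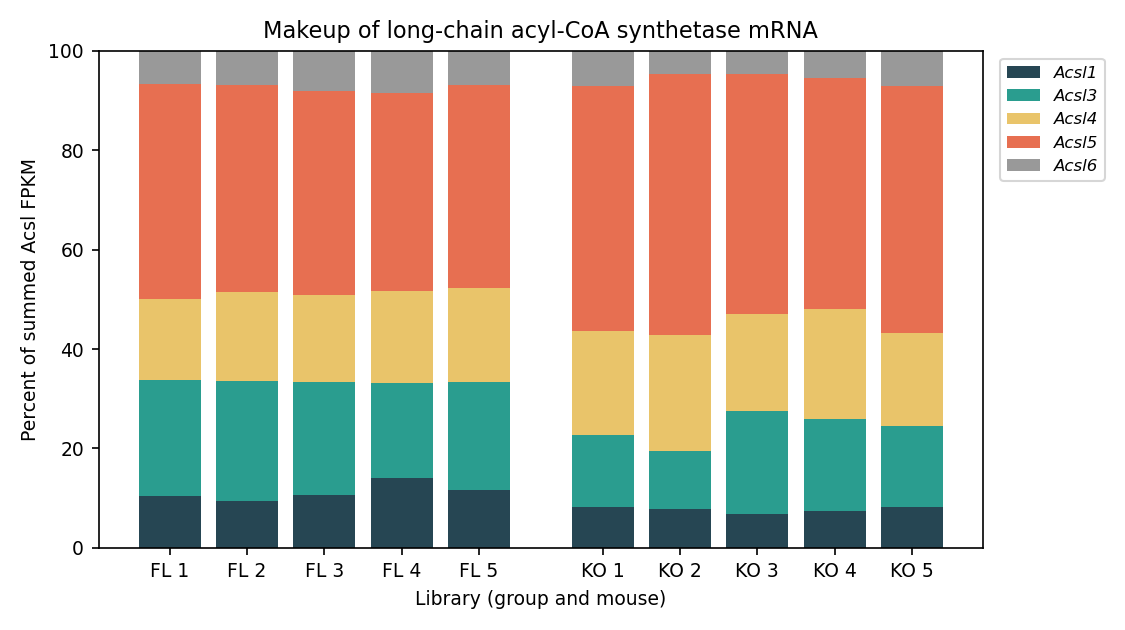
Percent of the summed FPKM of the 5 Acsl genes (y axis, 0 to 100%) that each gene takes in each of the 10 libraries (x axis), FL on the left and KO on the right. The Acsl5 segment is wider in every KO library (46.6 to 52.5%) than in any FL library (39.9 to 43.3%), and the Acsl3 segment is narrowest in KO mouse 2.

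Ratios within a library likewise do not depend on its scaling, and these were chosen after the values had been seen. Acsl5 was 1.72 to 2.08 times as abundant as Acsl3 in FL and 2.34 to 4.49 times in KO. It was 2.84 to 4.46 times as abundant as Acsl1 in FL and 6.06 to 7.11 times in KO. Neither ratio overlapped between the groups. The order of the synthetases in FL was Acsl5, Acsl3, Acsl4, Acsl1 and Acsl6, with no overlap between neighbours. In KO, Acsl4 (25.4 ± 4.19 FPKM) stood above Acsl3 (19.6 ± 4.36 FPKM; SD, n = 5), and these neighbours overlapped.

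**Figure D4:**
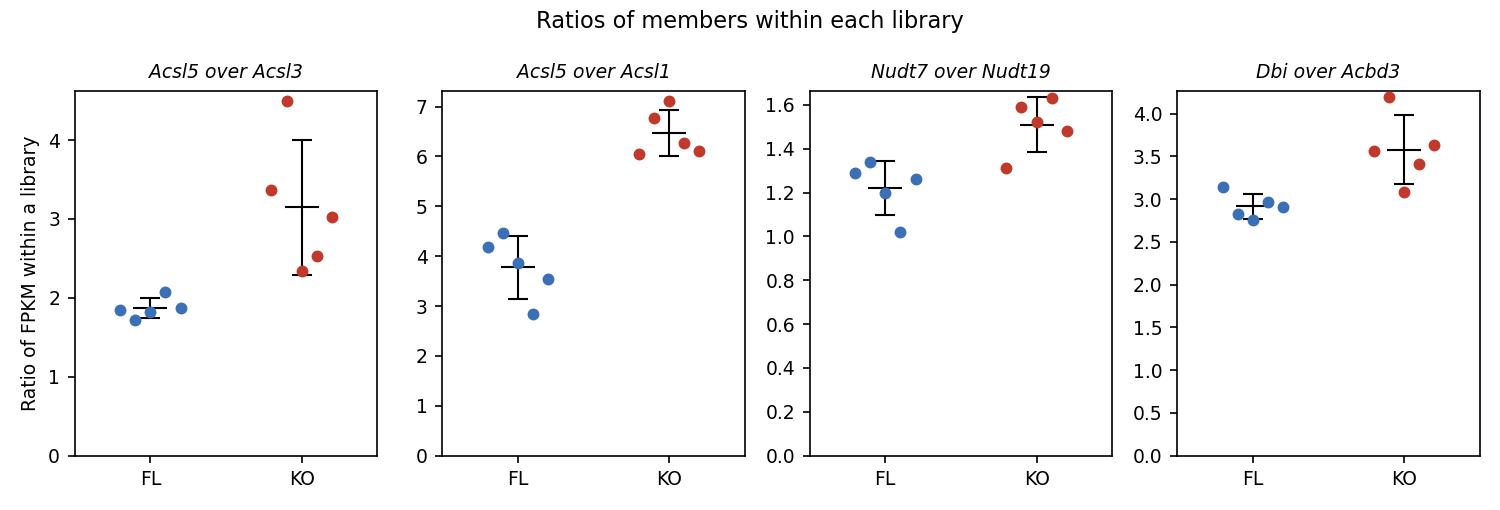
Ratio of the FPKM of 2 members within each library (y axis, from 0), 1 point per mouse, FL in blue and KO in red, with mean and SD of 5 mice in black. The groups are apart for Acsl5 over Acsl3 and Acsl5 over Acsl1 and overlap for Nudt7 over Nudt19 and Dbi over Acbd3.

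Dbi encodes the acyl-CoA binding protein ACBP, a small cytosolic carrier of long-chain acyl-CoA that is also known as diazepam binding inhibitor, from which peptides active on insulin secretion are cut. It was the most abundant member and the one with the lowest adjusted p. Dbi was at 114.0, 113.8, 103.3, 115.7 and 111.6 FPKM in FL mice 1 to 5 and at 149.3, 151.1, 135.1, 146.7 and 148.7 FPKM in KO mice 1 to 5. Even the lowest KO mouse, number 3, was above the highest FL mouse. The mean rose from 112 ± 4.92 FPKM to 146 ± 6.40 FPKM (SD over 5 mice), giving a log2 fold change of 0.39 (SE 0.05, 95% interval 0.28 to 0.49, limma adjusted p = 0.000233), and the exact two-sided permutation test again gave p = 0.00794. The spread of its log2 values was alike in both groups, with SDs of 0.06 and 0.06. Dbi ranked at the 92.6th percentile of tested genes in FL and at the 94.8th in KO. The gene lies on chromosome 1 from 120113280 to 120121078 (minus strand).

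The binding proteins attached to organelles were not called. Acbd3, a Golgi protein that binds giantin and recruits the phosphatidylinositol 4-kinase PI4KB, was at 36.3, 40.2, 37.4, 39.0 and 38.4 FPKM in FL mice 1 to 5 and at 41.8, 36.0, 43.9, 43.0 and 40.9 FPKM in KO mice 1 to 5. In KO, 4 mice were above all FL mice and mouse 2 was below them all. The log2 fold change was 0.10 (SE 0.06, 95% interval −0.03 to 0.23, limma adjusted p = 0.236), and 0.14 without KO mouse 2 (limma adjusted p = 0.0376). With any other single mouse left out, the adjusted p was 0.209 to 0.392 (limma). Acbd5, a peroxisomal membrane protein that ties peroxisomes to the ER through VAP proteins, was at 34.8 to 42.6 FPKM in FL (median 36.4) and at 33.9 to 41.4 FPKM in KO islets (median 40.0). Its log2 fold change was 0.01 (SE 0.08, limma adjusted p = 0.911), and the 95% interval of −0.15 to 0.18 leaves out a rise or fall of the size seen for Dbi. Its sign turned without FL mouse 1 (−0.01), KO mouse 1 (−0.01), KO mouse 3 (−0.02) or KO mouse 4 (−0.01). Acbd3 maps to chromosome 1 (180726043 to 180754204, plus strand) and Acbd5 to chromosome 2 (23068167 to 23115558, plus strand).

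The peroxisomal diphosphatases were abundant and neither passed the threshold. Nudt7 was at 79.6, 76.6, 76.3, 75.3 and 72.9 FPKM in FL mice 1 to 5 and at 81.5, 99.0, 92.7, 89.7 and 66.9 FPKM in KO mice 1 to 5. KO mice 1 to 4 were above all FL mice, and KO mouse 5 was below them all. The log2 fold change was 0.16 (SE 0.09, 95% interval −0.04 to 0.36, limma adjusted p = 0.222), and 0.25 without KO mouse 5 (limma adjusted p = 0.0142). Leaving out any other single mouse gave an adjusted p of 0.232 to 0.393 (limma), so the lower value rests on dropping that mouse. Nudt19 was at 61.7, 57.2, 63.5, 73.9 and 58.0 FPKM in FL mice 1 to 5 and at 62.3, 62.4, 60.8, 55.0 and 45.2 FPKM in KO mice 1 to 5. Of these, 3 KO mice lay within the FL range and 2, mice 4 and 5, below it. The log2 fold change was −0.14 (SE 0.10, 95% interval −0.36 to 0.08, limma adjusted p = 0.334). Exons of Nudt19 overlap B230322F03Rik on the opposite strand, which was at 3.996 ± 0.384 FPKM for FL against 2.23 ± 0.248 FPKM for KO (SD, n = 5; limma adjusted p = 0.000204). Nudt7 was 1.02 to 1.34 times as abundant as Nudt19 in FL and 1.31 to 1.63 times in KO, ranges that overlapped. Nudt7 maps to chromosome 8 (114133557 to 114154739, plus strand) and Nudt19 to chromosome 7 (35547185 to 35556304, minus strand).

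The SD of log2(FPKM + 1) was larger in KO than in FL for 8 of the 10 members and for 56.9% of all tested genes. The ratio was not tested. It was 5.32 times for Acsl5, 4.80 times for Nudt7 and 3.32 times for Acsl3, and below 1 for Acsl1 (0.448 times) and Dbi (0.998 times). KO mouse 2 held the highest KO value of 6 members (Acsl1, Acsl4, Acsl5, Dbi, Nudt7 and Nudt19), and KO mouse 5 the lowest of 5 (Acsl1, Acsl4, Acsl5, Nudt7 and Nudt19). In FL, mouse 4 held the highest value of 6 members. The members come from the same libraries, so these counts of highest and lowest values are not independent of one another. By mean level the order in FL was Dbi, Nudt7, Nudt19, Acsl5, Acbd3, Acbd5, Acsl3, Acsl4, Acsl1 and Acsl6, and the ranges of neighbours overlapped only for Nudt7 with Nudt19 and for Acbd3 with Acbd5. In KO, Acsl5 stood between Nudt7 and Nudt19 and overlapped both.

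The sequence just before the annotated start is shown for the 4 called genes, the members on which the comparison turns. Sequences are from RefSeq on GRCm38.p6 and run 5′ to 3′ on the strand of the gene up to the base before the start; of the 10 members, 9 had an entry, and Acbd3 had none. Capitals mark matches, on either strand, to the GC box GGGCGG, to the letters CCAAT of the box of that name, or to the sterol regulatory element TCACCCCAC. Acsl1 has 2 RefSeq starts, and gene-level FPKM do not say which was used. The RefSeq start of Acsl5 lies 1431 bases downstream of its GENCODE gene start, so the window shown is inside the gene span given above. For Dbi only the 90 bases next to its first start that lie in no annotated exon are shown, since the bases further upstream include exons of the neighbouring gene 3110009E18Rik. The window of a second Dbi start lies in part in an exon of Dbi and is not shown.
Acsl5, chr19:55253119-55253368, plus strand: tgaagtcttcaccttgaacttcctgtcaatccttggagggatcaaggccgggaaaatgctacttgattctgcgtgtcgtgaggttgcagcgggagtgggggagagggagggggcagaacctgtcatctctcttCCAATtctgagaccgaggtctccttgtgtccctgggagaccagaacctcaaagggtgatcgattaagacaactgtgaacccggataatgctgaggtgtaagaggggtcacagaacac
Acsl4, chrX:142390536-142390785, minus strand: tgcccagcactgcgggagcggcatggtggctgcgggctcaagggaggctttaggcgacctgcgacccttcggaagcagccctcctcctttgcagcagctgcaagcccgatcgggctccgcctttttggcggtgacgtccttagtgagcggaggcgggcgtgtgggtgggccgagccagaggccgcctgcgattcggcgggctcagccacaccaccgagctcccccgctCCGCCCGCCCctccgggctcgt
Acsl1, first start, chr8:46470787-46471036, plus strand: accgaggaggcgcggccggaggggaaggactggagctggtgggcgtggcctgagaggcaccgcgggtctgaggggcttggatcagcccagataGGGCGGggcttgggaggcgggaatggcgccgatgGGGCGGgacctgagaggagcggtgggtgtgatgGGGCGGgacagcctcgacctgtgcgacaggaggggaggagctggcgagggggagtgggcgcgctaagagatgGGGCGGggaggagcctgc
Acsl1, second start, chr8:46490716-46490965, plus strand: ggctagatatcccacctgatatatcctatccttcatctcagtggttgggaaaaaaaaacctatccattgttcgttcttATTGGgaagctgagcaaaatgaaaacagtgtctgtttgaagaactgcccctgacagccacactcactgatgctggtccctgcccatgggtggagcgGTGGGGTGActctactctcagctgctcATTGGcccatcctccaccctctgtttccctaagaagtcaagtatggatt
Dbi, chr1:120121097-120121186, minus strand: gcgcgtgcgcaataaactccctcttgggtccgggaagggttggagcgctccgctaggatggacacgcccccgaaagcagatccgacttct

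Over the whole 250 bases before the start, G and C made up 52.8% for Acsl5, 61.6% for Dbi and 70.8% for Acsl4. For Acsl1 they made up 72.0% before the first start and 48.4% before the second. None of the motifs searched was found before the first start of Dbi, and a CCAAT box was found in the window of its second start. Acsl5 held 1 CCAAT box and no GC box, and Acsl4 held 2 GC boxes that overlap each other. The first start of Acsl1 held 4 GC boxes, and the second held a sterol regulatory element match 76 to 68 bases before the start and 2 CCAAT boxes. Among 32851 windows of 250 bases before RefSeq starts, a GC box was found in 32.7%, a CCAAT box in 33.8% and the sterol regulatory element in 0.496%. The PPAR element, AGGTCA on either side of any 1 base (found in 0.0335% of windows), the C/EBP-ATF element TGATGNAAT (0.816%), the E-box CACGTG (6.02%), the ER stress element, which contains a CCAAT box and, after any 9 bases, CCACG (0.113%), and TATAAA (12.4%) were also searched on both strands, and these letters are not in the windows shown. A match is a stretch of letters and not a measured binding site.

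No called member changed by 0.5 or more on the log2 scale, so none met the limit set for naming genes of like pattern. With that limit dropped, a choice made after the values were seen, the 3 nearest genes by root mean square difference of centred log2(FPKM + 1) over the 10 libraries were Marc2 (0.05), Fads1 (0.06) and Creld2 (0.06) for Acsl5, and Tmed5 (0.05), Abhd11 (0.06) and Alg5 (0.06) for Dbi. For Acsl4 they were Gabarapl1 (0.08), AU040320 (0.09) and Erlec1 (0.09), and for Acsl1 they were Fut10 (0.09), Zbtb3 (0.09) and Cldnd1 (0.09).

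Other genes of acyl-CoA metabolism were read from 8 lists. Leaving out Fitm2, the deleted gene, which is on the list of diphosphatases, 75 of their 100 different genes were tested, and 7 were higher and 9 lower in KO. This is 21.3% called against 25.5% of all tested genes, with a median log2 fold change of −0.06 in both. Of 7 tested acyl-CoA synthetases outside the ACSL family, 2 were higher and none lower. Acsf2, a mitochondrial synthetase, was at 2.87 ± 0.776 FPKM for FL against 4.65 ± 0.894 FPKM for KO (limma adjusted p = 0.0221; SD, n = 5), and Acss2, the cytosolic acetyl-CoA synthetase, was at 15.6 ± 0.886 and 18.3 ± 1.53 FPKM (limma adjusted p = 0.0274; SD, n = 5). Aacs, the acetoacetyl-CoA synthetase, was far more abundant than any ACSL gene at 250 ± 29.4 FPKM for FL against 237 ± 38.1 FPKM for KO (limma adjusted p = 0.639; SD, n = 5). Of 6 further acyl-CoA binding proteins 1 was lower: Eci2, a peroxisomal enoyl-CoA isomerase that carries an acyl-CoA binding domain, fell from 95.8 ± 2.90 to 78.8 ± 4.86 FPKM (SD, n = 5) without overlap, a log2 fold change of −0.28 (limma adjusted p = 0.00237). Nudt8, a mitochondrial CoA diphosphatase, was at 17.0 ± 1.20 FPKM for FL against 16.4 ± 1.24 FPKM for KO (limma adjusted p = 0.571; SD, n = 5).

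Acyl-CoA thioesterases release the fatty acid again, and of 10 tested 2 were higher and none lower. Acot9, a mitochondrial thioesterase, rose from 8.80 ± 0.692 to 11.1 ± 0.666 FPKM (SD, n = 5; limma adjusted p = 0.00433) without overlap. Acot12, an acetyl-CoA thioesterase best known from liver, was at 0.0911 to 0.208 FPKM for FL against 1.19 to 2.07 FPKM for KO (limma adjusted p = 3.6e-05), which passed the filter through the KO group alone and is so low that the size of its fold change rests on the pseudocount. Acot13 was the most abundant, at 106.5 ± 4.29 FPKM for FL against 111 ± 5.95 FPKM for KO (limma adjusted p = 0.393; SD, n = 5). Of 11 tested genes of CoA synthesis and transport 2 were lower and none higher. Pank1, a pantothenate kinase that starts CoA synthesis, was at 7.84 ± 0.957 and 6.03 ± 0.703 FPKM (limma adjusted p = 0.0204), and Slc25a42, the mitochondrial CoA carrier, at 8.40 ± 0.457 and 6.80 ± 0.326 FPKM (SD, n = 5; limma adjusted p = 0.00358).

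Of 26 tested enzymes that consume acyl-CoA, 2 were higher and 5 lower. Soat1, which esterifies cholesterol with acyl-CoA, rose from 30.1 ± 3.22 to 64.5 ± 6.74 FPKM (SD over 5 mice), giving a log2 fold change of 1.08 (limma adjusted p = 1.01e-05). Dgat2, which makes triglyceride, fell from 7.32 ± 1.08 to 4.34 ± 0.614 FPKM, with a log2 fold change of −0.64 (limma adjusted p = 0.00161), and Elovl6, which lengthens palmitoyl-CoA, rose from 6.83 ± 0.346 to 8.78 ± 0.392 FPKM (SD, n = 5; limma adjusted p = 0.000955), each without overlap. Counts for the known partners of the binding proteins are to be read against the 25.5% of all tested genes that were called. Of 10 tested genes of peroxisomal import and VAP contacts 1 was lower, Pex19, at 49.2 ± 2.12 and 41.7 ± 3.66 FPKM (SD, n = 5; limma adjusted p = 0.0168), while Vapb and Vapa, the ER anchors of Acbd5, had adjusted p of 0.529 and 0.304 (limma). Of the 4 Golgi partners of Acbd3, Tbc1d22a was higher, at 16.6 ± 0.775 and 19.5 ± 1.67 FPKM (SD, n = 5; limma adjusted p = 0.0231), and Pi4kb, at 54.0 ± 3.73 and 54.0 ± 4.19 FPKM, was not called (limma adjusted p = 0.991; SD, n = 5).

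**Figure D5:**
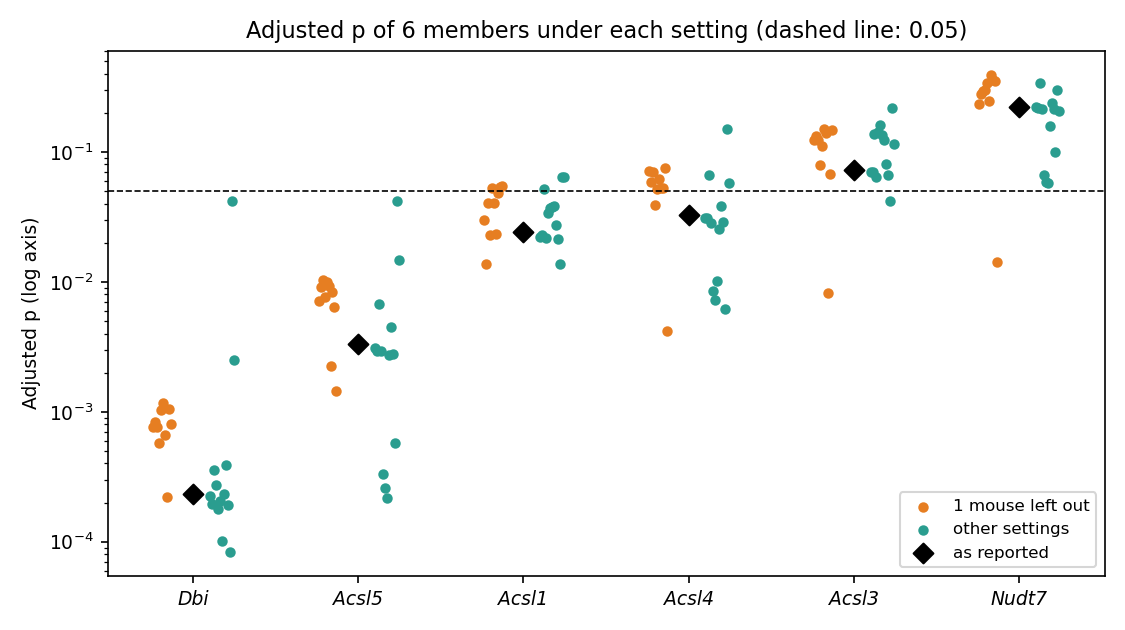
Adjusted p (log axis) of 6 members as reported (black diamond), with 1 mouse left out (orange) and under the other settings (green), with a dashed line at 0.05. All points of Dbi and Acsl5 are below the line, those of Acsl1 and Acsl4 fall on both sides, and Acsl3 and Nudt7 each drop far below it once, without KO mouse 3 and without KO mouse 5.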

How the data were processed

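Islet RNA of 5 FL and 5 KO mice was sequenced with 1 polyadenylated, stranded, single-end library per mouse. FPKM for every gene and mouse were deposited by the authors in 1 table. The submitters' processing notes name STAR 2.5.2a, Cuffnorm 2.2.1, mm10 and GRCm38. The annotation, the scaling between libraries and the use of strand in counting are not given in the sources used here. FPKM do not hold read numbers, so no counting error was computed, and relative depth came from the commonest ratio of values under 0.3 FPKM. Group differences in log2(FPKM + 1) were fitted by limma 3.58.1 under R 4.3.3 (lmFit, eBayes with trend) for the 13065 genes whose FL or KO mean reached 1 FPKM, with no covariate, Benjamini-Hochberg adjustment over all of them and a threshold of 0.05, which follow the filter and the false discovery rate of the study. A single gene was also compared by an exact two-sided permutation of log2 values. The procedure was tested on simulated data. Summaries used Python 3.11.15, pandas 2.3.3 and numpy 2.4.6, and figures matplotlib 3.10.9. Identifiers of 7 of the 10 members match GENCODE M21 with their version and the others without it.

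The members and the gene lists were chosen with earlier results of these data known. Named genes were the members, Fitm2 and, from each list, up to 3 called genes with the largest change and up to 2 with the highest mean, and for called members with a change of at least 0.5 (log2) the 3 genes of nearest pattern. A gene that this rule names is not reported here. Alternatives were other pseudocounts, filters, scalings, eBayes settings, sample weights, a rank test, a replicate block, a required fold and each mouse left out.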

Additional observations from a re-analysis of the deposited data

Results flagged for a closer look

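In 110 groups of 5 mice (45 genes, the summed Acsl level, its shares and 4 ratios, each in FL and in KO), 5 had 1 mouse far from the other 4, where chance gives about 5.5. Among the members, the KO mouse lowest for Dbi was at 135.1 FPKM and the other KO mice were at 146.7 to 151.1 FPKM, a gap of 0.725 of the range. The summed Acsl level of 1 FL mouse was 115.8 FPKM against 108.4 to 109.2 FPKM in the others (0.891 of the range). Of the other genes, Acsf3 had 1 KO mouse at 22.02 FPKM above 19.85 to 20.12 FPKM, Them6 had 1 FL mouse at 19.12 FPKM above 17.03 to 17.42 FPKM, and Ucp2 had 1 FL mouse at 184.6 FPKM below 197.1 to 199.4 FPKM.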

How the results depend on the processing

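Over 24 alternatives, Dbi and Acsl5 were called in 23 each and missed only the required 1.5-fold change, and no member changed direction except Acbd5, whose log2 fold change ran from −0.01712 to 0.05842 with single mice left out. The number of members called was 4, and it was 2 without a filter on low FPKM, with an exact Wilcoxon rank test or with a replicate block, 5 with sample weights, 0 with a required 1.5-fold change and 2 to 4 with single mice left out. Acsl1 missed the threshold under 7 and Acsl4 under 12 of the alternatives, with adjusted p up to 0.0642 and 0.151. Acsl3 was called with sample weights (adjusted p = 0.0416 from limma). The called genes of all 10 gene lists, PPAR and SREBP targets and Fitm2 included, went from 25 to 16 with the rank test and to 6 with the required fold, and those of the whole table from 3333 to 639 with the required fold. With sample weights they rose, to 34 for the lists and to 4273 for the whole table. Same-numbered FL and KO mice did not deviate together (r −0.102 to 0.00305 across genes, and none was closest to its own number). These correlations cannot exclude that the numbers pair the mice, which the sources used here do not state. With the block, 2368 genes were called. The shares of the Acsl genes moved by less than 1 SD when a mouse was left out. Members lie at 5.82 FPKM or above, so low values did not limit them.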

Other observations

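Target genes of 2 lipid sensors, listed beside the members because Acsl1 is a known PPARα target, were read as lists. Of 15 listed PPAR target genes only 7 were abundant enough to be tested. Of these, 4 were higher and 1 lower in KO, where 9.05% of all tested genes were higher and 16.5% lower. Acsl1, called lower in KO, is a member and was not put on this list. Their median log2 fold change was 0.25, against −0.06 over all tested genes. Ehhadh, an enzyme of peroxisomal oxidation, rose from 8.39 ± 0.448 to 14.5 ± 1.35 FPKM (SD, n = 5; limma adjusted p = 2.9e-05), and Plin2, a lipid droplet coat protein, rose from 41.9 ± 1.64 to 56.6 ± 5.05 FPKM (SD, n = 5; limma adjusted p = 0.000654). Cpt2, the inner carnitine palmitoyltransferase of mitochondria, was the gene called lower, from 44.96 ± 2.999 to 38.9 ± 2.15 FPKM (SD, n = 5; limma adjusted p = 0.0238), and is named here after its values were seen. Ucp2, a mitochondrial carrier, rose from 196 ± 6.31 to 234 ± 18.01 FPKM (SD, n = 5; limma adjusted p = 0.00799). Fabp4, also on the adipocyte list and known from endothelial cells and macrophages, whose markers were higher in KO, was at 8.21 to 19.5 FPKM in FL islets and at 19.4 to 29.6 FPKM in KO islets (limma adjusted p = 0.0164), and their part in this difference was not tested.

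Of 13 tested SREBP target genes 2 were higher and 2 lower, a share near the 25.5% called over all tested genes, with a median of −0.08. Sqle and Fdps, of sterol synthesis, were at 80.3 ± 7.73 and 105 ± 5.996 FPKM and at 91.5 ± 7.24 and 111 ± 7.20 FPKM in FL and KO (SD, n = 5; limma adjusted p = 0.00239 and 0.0118). Srebf1, which encodes SREBP1, fell from 115 ± 6.96 to 85.8 ± 5.88 FPKM (SD, n = 5; limma adjusted p = 0.000573).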
